A study of Mus musculus with 6 samples.

Results

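Acyl-CoA thioesterases were examined in the cell line mProx24, derived from mouse kidney proximal tubule, through every array probe whose gene name was Acot1, Acot2, Acot3, Acot4, Acot7, Acot8, Acot9, Acot11, Acot12 or Acot13. These 10 genes, of 34797 gene names on the array, had 12 of its 55681 probes, and Acot3 and Acot8 had 2 probes each. The family was chosen by the measured difference between the array called array A below and the hypoxia array, so the values of that contrast are a description. Other comparisons that use array A or the hypoxia array share readings with that choice, so their values, ranks and counts are a description too. The RNA of 6 conditions, all in cells labelled as strain C57B6, was hybridised to single-colour Agilent arrays, 1 per condition.

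The condition triple stimuli + rapamycin combined 1% oxygen, HG (high glucose) and palmitate with rapamycin, which inhibits the kinase complex mTORC1. Triple stimuli was the same combination without rapamycin. Array A carries the label high glucose in its scanner file, while the deposited value table holds its values under the label high FFAs (free fatty acids), and array B carries these 2 labels the other way round. Neither array was relabelled, and no statement is made on which stimulus each of them had. By their labels, high glucose was 20% oxygen, HG and PBS, and high FFAs was 20% oxygen, NG and palmitate. Hypoxia was 1% oxygen with NG and PBS, and control was 20% oxygen with NG and PBS. Palmitate was given at 150 µM for 9 hours bound to 0.15% albumin, after 12 hours at 1% oxygen where hypoxia was applied. Rapamycin (0.4 µg/ml) was present for 12 hours before the palmitate. The sources used here do not give the glucose concentrations, the vehicle of rapamycin or whether albumin went with PBS.

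Since each condition had a single array, no difference below was tested and no p-value was computed. A level is the log2 processed signal of a probe less that of the 75th percentile of its array's spots, so that 0 is a probe as bright as that percentile. The error given for a level is the scanner software's own error of the spot, and that of a difference combines the errors of both spots. Neither error holds any spread between cultures. A difference of at least 1 on the log2 scale, 2-fold, was counted as higher or lower. Probes with at least 5 spots on an array gave a check of the spot-to-spot spread: the median SD was between 0.118 and 0.136 for levels below 0, and between 0.0460 and 0.0647 for levels above 3. Spots well above background made up between 40.3% and 43.8% of the 59305 spots of an array, and 0 probes were saturated. All 6 arrays lay on 1 slide, with the arrays at 20% oxygen in one row of the slide and those at 1% oxygen in the other, and these 2 factors cannot be told apart.

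Of 20 proximal tubule markers, 5 were well above background on at least 1 array and 4 on all 6. Those 4 were Lrp2 and Cubn, the endocytic receptors megalin and cubilin, Aqp1, a water channel, and Ggt1, a brush border enzyme. Slc34a1, Slc5a2, Slc22a6 and Hnf4a, which define the tubule segment in the kidney, were well above background on no array. No adipocyte marker of the 3 on the arrays was measured, and no podocyte or fibroblast marker was well above background on all arrays. On at least 1 array, 1 of 4 podocyte markers and 2 of 5 fibroblast markers were well above background. Of 5 leukocyte markers, Cd68, Cd3e and Itgam were well above background on all 6 arrays. So were Kdr of 5 endothelial markers and Aqp2 of 8 markers of distal nephron and collecting duct. In the same lysates, fewer cells with an RNA and less of that RNA per cell cannot be told apart.

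Acyl-CoA thioesterases split acyl-CoA into a free fatty acid and coenzyme A, and so act against the synthetases that activate fatty acids. The type I enzymes share an alpha/beta hydrolase fold and lie side by side in the mouse genome: Acot1 is cytosolic, Acot2 mitochondrial, and Acot3 and Acot4 peroxisomal. The type II enzymes have a hotdog fold and are spread over the genome, and they include cytosolic Acot7, peroxisomal Acot8 and mitochondrial Acot9. Several of these genes, Acot1 among them, are known targets of PPARalpha, the fatty acid-activated receptor, in liver and heart.

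The results turn on the probes of Acot1 and Acot2, neighbouring genes whose coding sequences are closely alike, so the probe sequences are printed here. The Acot1 probe lies at chr12:85358561-85358620 on the plus strand and the Acot2 probe at chr12:85334071-85334130 on the plus strand, both on mouse build mm9 as the scanner files give it. No exon annotation of mm9 was used here. The letters are those of the deposited files, and capitals mark the polyadenylation signal AATAAA, which the Acot1 probe holds and the Acot2 probe does not.
Acot1 probe: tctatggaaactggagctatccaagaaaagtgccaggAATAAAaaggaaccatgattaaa
Acot2 probe: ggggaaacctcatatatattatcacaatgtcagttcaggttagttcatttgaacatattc
The longest run of bases that these probes share was 6, and over all 66 pairs of the 12 probes it was 9, against a probe length of 60. The start of the Acot2 probe lay 24490 bases from that of the Acot1 probe. The 5 probes of Acot1, Acot2, Acot3 and Acot4 spanned 66441 bases of chromosome 12. Binding of one gene's transcript to the other's probe was not tested, since no transcript sequences were used.

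Promoter windows of 300 bases, 250 before and 50 after the annotated start, were taken from RefSeq on build GRCm38.p6 for 9 of the 10 genes, all but Acot13. Those of Acot1 and Acot2 are shown because both genes were far above control on array A. The Acot1 window is chr12:84009252-84009551 and the Acot2 window chr12:83987611-83987910, both on the plus strand, and capitals mark the CCAAT box, written ATTGG where it is on the other strand.
Acot1 promoter: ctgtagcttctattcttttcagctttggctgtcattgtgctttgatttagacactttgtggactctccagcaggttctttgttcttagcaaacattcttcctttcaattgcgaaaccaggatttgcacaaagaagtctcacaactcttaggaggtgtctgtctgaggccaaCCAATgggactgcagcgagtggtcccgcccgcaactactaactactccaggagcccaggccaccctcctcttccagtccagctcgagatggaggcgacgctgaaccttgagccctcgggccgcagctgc
Acot2 promoter: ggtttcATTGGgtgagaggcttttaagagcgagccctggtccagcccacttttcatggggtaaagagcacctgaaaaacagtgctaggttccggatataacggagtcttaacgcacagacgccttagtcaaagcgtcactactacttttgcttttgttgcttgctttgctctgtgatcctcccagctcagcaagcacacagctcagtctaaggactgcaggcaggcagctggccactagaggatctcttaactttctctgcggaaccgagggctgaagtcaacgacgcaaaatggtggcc
The windows were searched on both strands for the following motifs, where N is any base, and the repeat overlaps its half-site: ACGTG and GCGTG (forms of the hypoxia response core), AGGTCA (the PPAR half-site), a direct repeat of that half-site with any 1 base between, TGATGNAA (a C/EBP-ATF element) and CCAAT. Of these, only CCAAT was in the windows of Acot1 and Acot2, at position -79 from the start site in Acot1 and -244 in Acot2. Of all 32851 windows of this length, 37.4% held CCAAT, 19.6% ACGTG, 32.4% GCGTG, 16.3% AGGTCA, 0.0396% the direct repeat and 3.97% TGATGNAA. AGGTCA was in the windows of Acot3, Acot4 and Acot12, ACGTG in those of Acot4 and Acot11, and GCGTG in those of Acot7 and Acot8.

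The 2 genes with a 2-fold difference in any comparison were type I enzymes of the chromosome 12 cluster. Acot1, the cytosolic enzyme, had a level of -0.39 with triple stimuli + rapamycin, -1.58 with triple stimuli, 0.55 (array A), -1.25 (array B), -3.08 (hypoxia) and -1.45 (control). The scanner error was 0.34 in hypoxia and between 0.15 and 0.18 on the other arrays. Array A was highest, triple stimuli + rapamycin next, and hypoxia lowest, where the spot was not well above background. Array B, control and triple stimuli lay next to each other in that order, and neighbours among them differed by less than the scanner errors of these differences, 0.23 and 0.24. In processed signal, the Acot1 spot read 258, 103, 511, 145, 35.6 and 133 units on the same 6 arrays.

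Acot2, the mitochondrial enzyme, had a level of -0.72 with triple stimuli + rapamycin, 0.14 with triple stimuli, 0.30 for array A, -2.77 for array B, -2.52 for hypoxia and -2.71 for control. It was well above background on all 6 arrays and split into 3 high and 3 low arrays with no value between -2.52 and -0.72. Triple stimuli lay -0.16 from array A, and hypoxia, control and array B lay within their scanner errors, 0.25, 0.21 and 0.24, with 0.15 on each of the high arrays. The processed signal of the Acot2 spot was 206, 340, 429, 50.3, 52.2 and 55.5 units in the same order of arrays.

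**Figure D1:**
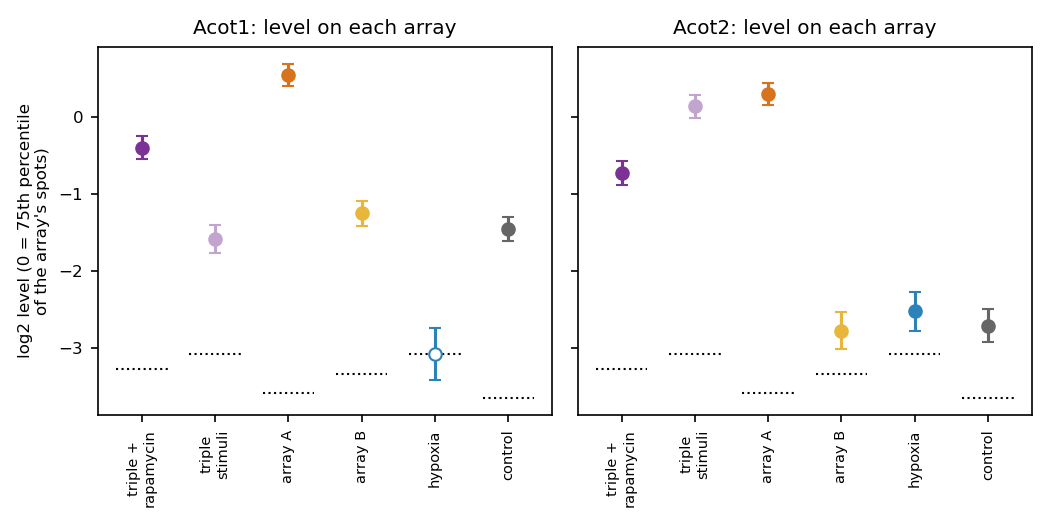
Log2 level of the Acot1 probe (left) and the Acot2 probe (right) on each of the 6 arrays, where 0 is the 75th percentile of an array's spots; bars are the scanner software's error, dotted lines the lowest level well above background on that array, and the open point was not well above background. Acot2 is high on 3 arrays and low on 3, while Acot1 is highest on array A at 0.55 and lowest in hypoxia at -3.08.

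The low group of Acot2 was array B, hypoxia and control, and the high group held every other array. The summed level of the 20 proximal tubule markers, as a ratio to the 75th percentile, divided the arrays the same way: 9.49 with triple stimuli + rapamycin, 12.2 with triple stimuli and 13.1 on array A, against 24.8 on array B, 23.9 in hypoxia and 22.5 in control. The 8 markers of distal nephron and collecting duct, 2 of which were well above background on at least 1 array, also did so: they summed to 0.455, 0.485 and 0.530 on those 3 arrays, against 0.672 on array B, 0.606 in hypoxia and 0.677 in control. The sums of the podocyte, fibroblast, endothelium, leukocyte and adipocyte markers overlapped between the high and the low arrays of Acot2. The part of any of these in the Acot2 levels was not tested.

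On array A, Acot1 and Acot2 were both above control. Acot2 was higher by 3.01 ± 0.26 (scanner error), 8.07-fold, and it ranked 7 among the 24508 probes counted in this comparison. Acot1 was higher by 2.01 ± 0.21, 4.02-fold, and ranked 35. These were 2 of 7 measured thioesterase probes, where 1.56% of all probes were at least 2-fold higher and 0.894% at least 2-fold lower. The array A readings also entered the choice of the family, which favours high ranks and counts here. The difference of Acot1 less that of Acot2 was -1.01 ± 0.33. Under normexp background correction, another way to subtract background, run here with an offset of 50 units, the differences were 1.61 for Acot1 and 2.08 for Acot2.

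Array B differed from control by 0.20 ± 0.23 for Acot1 and by -0.06 ± 0.32 for Acot2. Neither was counted, and 0 of 7 probes of the family were, beside 0.361% of all probes higher and 0.319% lower.

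In hypoxia, Acot1 was 3.09-fold lower than in control, a log2 difference of -1.63 ± 0.37. Its spot of 35.6 units was not well above background there. The lowest signal called well above background on that array was 35.5 units, so the spot was not raised. The value is thus a dim reading and not a limit. Acot2 differed by 0.19 ± 0.33. The difference of Acot1 less that of Acot2 was -1.81 ± 0.50. Among all 23194 probes counted, 0.457% were at least 2-fold lower and 4.82% at least 2-fold higher, and of the 7 thioesterase probes 1 was lower and 0 were higher. The hypoxia readings also entered the choice of the family. In the band of 64 rows of spots that held the Acot1 spot, 0.607% of probes were lower. The call on Acot1 ended under normexp, where the difference was -0.64.

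Array A against hypoxia was the contrast behind the choice of the family. Acot1 was 12.4-fold higher on array A and Acot2 7.09-fold higher, log2 differences of 3.63 ± 0.37 and 2.83 ± 0.29. The Acot1 value rests on its dim hypoxia spot. Under normexp these differences were 2.25 for Acot1 and 1.91 for Acot2. Of all 23334 probes counted, 1.9% were at least 2-fold higher and 5.14% lower, and 2 thioesterase probes were higher. The Acot2 value came almost whole from array A, since hypoxia and control lay within their errors, while that of Acot1 joined a high value on array A with a low one in hypoxia.

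With triple stimuli, Acot1 and Acot2 parted. Acot2 was 7.22-fold higher than in control, a log2 difference of 2.85 ± 0.26 that was 1.94 under normexp, and Acot1 differed by -0.13 ± 0.24. The difference of Acot1 less that of Acot2 was -2.98 ± 0.35. At least 2-fold higher were 5.45% of all 23115 probes and 1 of 7 thioesterase probes, and 1.69% of all probes were lower. This comparison shares its control array with those of array A, array B and hypoxia.

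Against the hypoxia array, which had the same oxygen, triple stimuli was higher for both genes. Acot1 was 2.82-fold higher, a log2 difference of 1.49 ± 0.38 that again rests on the dim hypoxia spot. Acot2 was 6.35-fold higher, a difference of 2.67 ± 0.29. Of all probes 3.54% were higher and 3.07% lower in this comparison. Under normexp the Acot1 call ended, at 0.66, and the difference of Acot2 was 1.77. For Acot1 the triple stimuli level was thus within error of control and above hypoxia, and 4.40-fold lower than on array A.

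The glucose and palmitate step at 1% oxygen was set beside the steps at 20% oxygen, whichever array had which stimulus. Triple stimuli minus hypoxia was 2.67 for Acot2, against 2.95 for the sum of array A minus control and array B minus control, a shortfall of 0.28 (log2 difference -0.28). For Acot1 the step, which rests on the dim hypoxia spot, was 1.49 against 2.21, a difference of -0.72. For Acot13 the step was -0.21 against 0.32. The sum uses the control array for both of its terms, and none of these differences has a replicate error.

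Rapamycin was given on top of the triple stimuli, and here the differences of the 2 genes had opposite signs. Acot1 was 2.28-fold higher with triple stimuli + rapamycin than with triple stimuli, a log2 difference of 1.19 ± 0.24. Acot2 was 1.82-fold lower, a difference of -0.87 ± 0.21, which is short of the 2-fold limit. The Acot1 difference exceeded that of Acot2 by 2.06 ± 0.32. Of 7 thioesterase probes 1 was higher and 0 were lower, beside 2.05% of all 23367 probes higher and 2.19% lower. Under normexp the Acot1 difference was 0.80 and no longer counted. With triple stimuli + rapamycin both genes were above control, Acot1 2.09-fold and Acot2 3.97-fold, while with triple stimuli alone Acot2 was and Acot1 was within error of it.

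**Figure D2:**
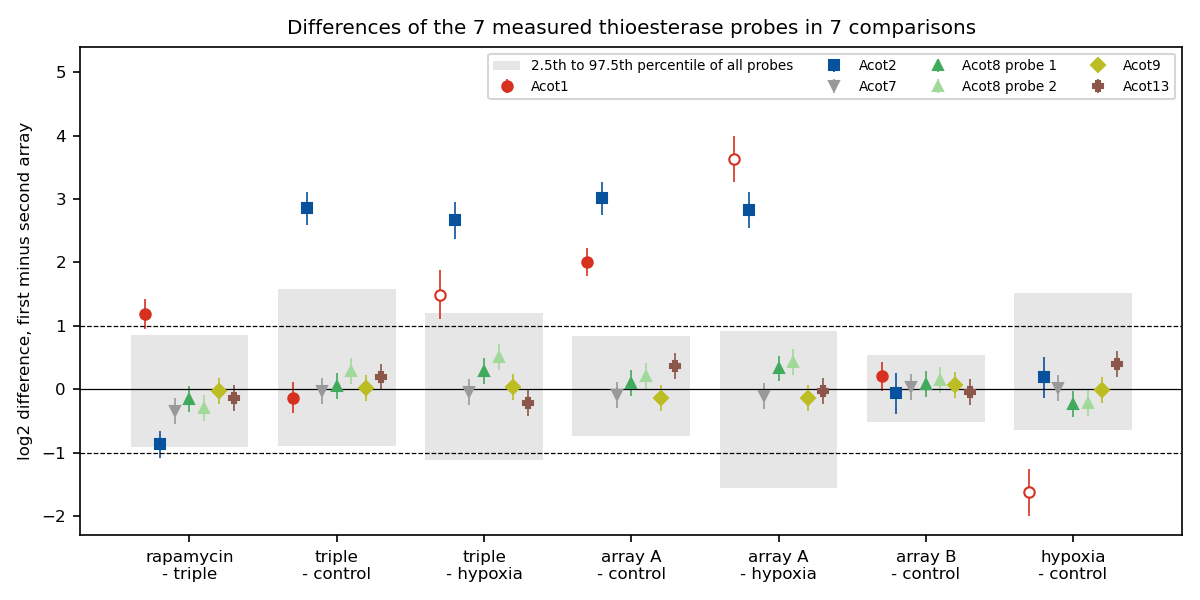
Log2 difference, first minus second array, of the 7 measured thioesterase probes in 7 comparisons. Bars are the combined scanner error, and open points use a spot that was not well above background. Dashed lines are the 2-fold limits, and grey blocks the central range of all probes in the comparison. Acot1 and Acot2 leave the blocks where array A is compared with control or hypoxia and in triple stimuli against hypoxia, Acot2 alone with triple stimuli against control at 2.85, and Acot1 alone with hypoxia at -1.63 and rapamycin at 1.19.

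The other 2 type I genes among the 10 chosen, the peroxisomal Acot3 and Acot4, were not measured on these arrays. The Acot3 probes had processed signals between 6.58 and 12.0 units and between 8.07 and 21.5 units over the 6 arrays, and the Acot4 probe between 7.09 and 9.39 units. The lowest signal well above background was between 28.8 and 36.3 units on the 6 arrays. Acot11, which carries a lipid-binding domain and is known from brown fat, and Acot12, an acetyl-CoA hydrolase of liver cytosol, were as dim, with 7.07 to 9.52 units and 7.05 to 9.37 units. For Acot4, Acot11 and Acot12 the software had put a surrogate in place of the signal on all 6 arrays. These 5 probes of 4 genes were well above background on no array, as were 52.0% of all probes, and their differences have no value here.

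The type II genes that were measured kept close to 1 level on every array. Acot7, a cytosolic enzyme for long-chain acyl-CoA that is abundant in brain, had a level of 5.48 with triple stimuli + rapamycin, 5.83 with triple stimuli, 5.77 for array A, 5.90 for array B, 5.88 for hypoxia and 5.86 for control. Its lowest value was with rapamycin, 0.35 below triple stimuli (log2 difference -0.35 ± 0.20). Acot13, a mitochondria-associated hotdog enzyme, had 5.67 with triple stimuli + rapamycin, 5.81 with triple stimuli, 5.99 for array A, 5.57 for array B, 6.02 for hypoxia and 5.62 for control. Its highest values were thus in hypoxia and on array A, 0.40 ± 0.20 and 0.37 ± 0.20 above control.

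Acot8, the peroxisomal enzyme, was read by 2 probes. The first had 2.44, 2.58, 2.62, 2.61, 2.30 and 2.53 with triple stimuli + rapamycin, triple stimuli, array A, array B, hypoxia and control, in that order. The second had 1.30, 1.60, 1.52, 1.46, 1.09 and 1.31 on the same arrays. Both were lowest in hypoxia, by -0.23 and -0.22 against control, and each of these was close to 1 scanner error of 0.20 or 0.21. Acot9, the mitochondrial enzyme, had 3.36, 3.39, 3.23, 3.43, 3.36 and 3.37 in the same order, the narrowest range of the measured probes.

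Over the 5 probes of Acot7, Acot8, Acot9 and Acot13 and the 7 comparisons, the 35 differences lay between -0.35 and 0.51. The largest, the second Acot8 probe with triple stimuli against hypoxia, was 1.42-fold, and 0 of the 35 reached 2-fold. Only 2 of the 35 were larger than 2 scanner errors, which were between 0.20 and 0.21. The median difference of the 7 measured thioesterase probes was 0.21 on array A against control, where that of all probes was -0.01, and -0.01 in hypoxia against control, where that of all probes was -0.03.

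**Figure D3:**
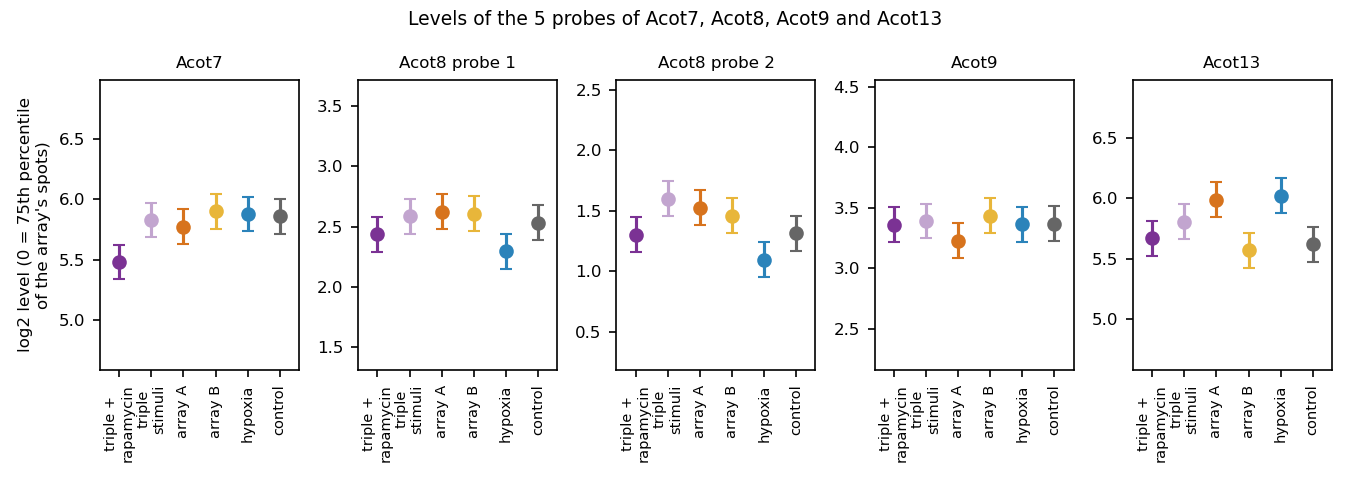
Log2 level of the probes of Acot7, Acot8 (2 probes), Acot9 and Acot13 on each of the 6 arrays, with the scanner software's error as bars; the panels start at different levels and each spans the same width on the log2 axis. No point leaves its neighbours by a 2-fold difference.

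Genes around the thioesterases in fatty acid metabolism were taken from lists, 1 probe per gene. Of the other acyl-CoA and acyl-protein thioesterases, 10 were on the arrays and 6 were measured on array A or control. On array A 0 of these 6 were 2-fold higher or lower, near the shares of all gene names, 1.56% higher and 0.91% lower. Acot10, a close relative of Acot9, was 0.10 above control on array A and 0.33 above it in hypoxia. Acot5, well above background on 2 arrays, was 0.12 above control on array A, and its second probe was at least 0.61 above. The palmitoyl-protein thioesterase Ppt1 was 0.31 above control on array A.

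The acyl-CoA synthetases, which make the substrate, had 11 of 22 genes measured, of which 1 was higher on array A and 0 were lower, beside 1.56% of all gene names higher and 0.91% lower. That gene was Acsbg1, a very-long-chain synthetase, with levels of 0.91 with triple stimuli + rapamycin, 1.29 with triple stimuli, 0.55 for array A, -0.72 for array B, -0.71 for hypoxia and -1.14 for control. Acsbg1 was thus high at this probe on the same 3 arrays as Acot2, while another Acsbg1 probe had no value in any comparison. The fatty acid transporter Slc27a1 was 0.93 above control on array A, short of the limit.

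Of the genes of the carnitine shuttle and mitochondrial beta-oxidation, 20 of 21 were measured on array A or control, and 1 was higher and 0 lower, beside the same shares of all gene names, 1.56% and 0.91%. The median was -0.07. The 1 gene was Cpt1a, the carnitine palmitoyltransferase that admits long-chain acyl groups to mitochondria. Its levels were -0.87 with triple stimuli + rapamycin, -1.49 with triple stimuli, -0.64 for array A, -1.74 for array B, -3.01 for hypoxia and -1.84 for control. As for Acot1, array A was highest, triple stimuli + rapamycin next, and hypoxia lowest and not well above background. Cpt1a was 1.19 above control on array A and 0.62 higher with rapamycin than with triple stimuli alone. Its difference in hypoxia against control was -1.17, a dim reading and not a limit. In hypoxia, 1 of 21 genes was lower, Cpt1a, beside 0.491% of all gene names, and 1 was higher, beside 4.62%. The higher one was the muscle isoform Cpt1b, at least 2.43 above control, measured on the hypoxia array alone. Its spot lay in a band of rows where 10.4% of probes were higher in hypoxia, and another Cpt1b probe had no value in any comparison. Of the 14 measured genes of peroxisomal beta-oxidation, 0 were 2-fold higher or lower on array A or in hypoxia. For a list of this size that is near the shares of all gene names just given.

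The known PPAR targets, 1 of which is also on the peroxisomal list, had 6 of 11 measured genes higher on array A and 0 lower, beside 1.56% of all gene names higher and 0.91% lower. Their median was 1.10, where all gene names had a median of -0.01. The hypoxia array had 1 of 9 higher, beside 4.62% of all gene names, with a median of -0.06. With triple stimuli 4 of 10 were higher than in control, beside 5.32% of all gene names. Angptl4, a secreted inhibitor of lipoprotein lipase, had levels of 4.0 with triple stimuli + rapamycin, 4.20 with triple stimuli, 4.53 for array A, 1.90 for array B, 0.89 for hypoxia and 1.29 for control. The lipid droplet coat gene Plin2 had 6.42, 6.80, 6.72, 5.15, 5.22 and 4.87 on the same arrays, and like Acot2 was high on the first 3. Plin4, of the same family, was 2.23 above control on array A. Hilpda, an inhibitor of lipolysis, was 1.75 above control on array A and 1.88 above it in hypoxia. The PPAR factors and coactivators had 7 of 8 genes measured, all of them above 0 on array A with a median of 0.23, and 0 were 2-fold higher. Of the 5 measured acyl-CoA binding genes, 0 were 2-fold higher or lower on array A. For these 2 small lists, counts of 0 are near the shares of all gene names, 1.56% higher and 0.91% lower.

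**Figure D4:**
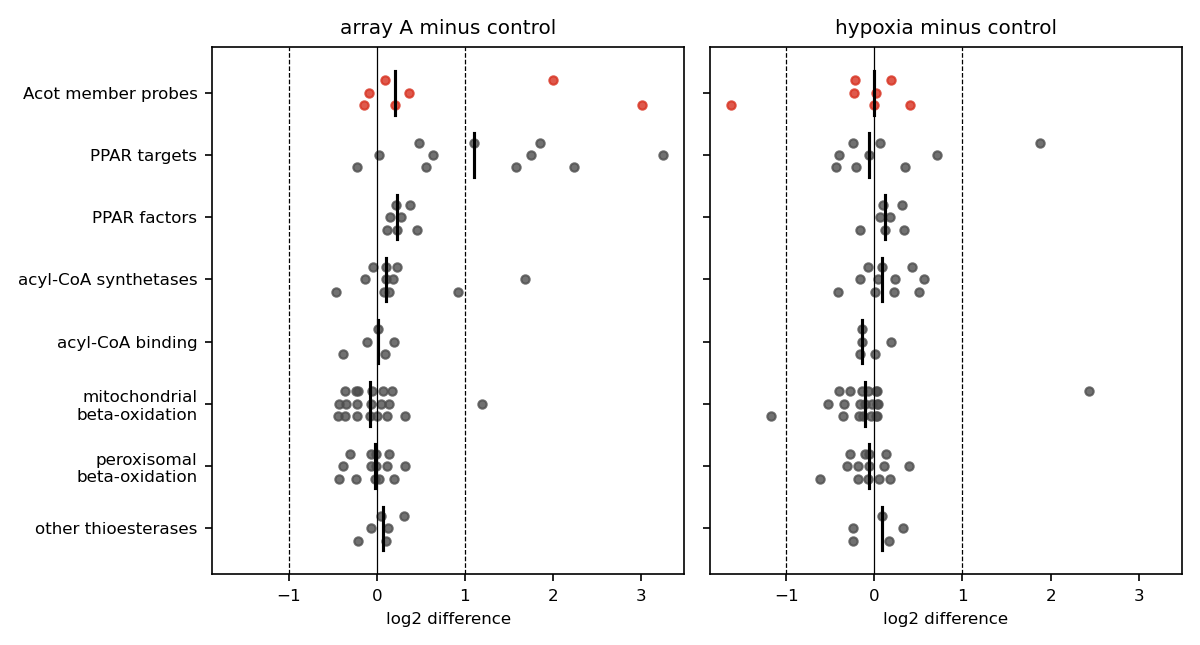
Log2 difference from control on array A (left) and in hypoxia (right) of the measured thioesterase probes (red) and of the genes of 7 lists of fatty acid metabolism (grey, 1 probe per gene); black bars are medians and dashed lines the 2-fold limits. On array A the PPAR targets have a median of 1.10, while the medians of the other lists lie between -0.07 and 0.23.

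**Figure D5:**
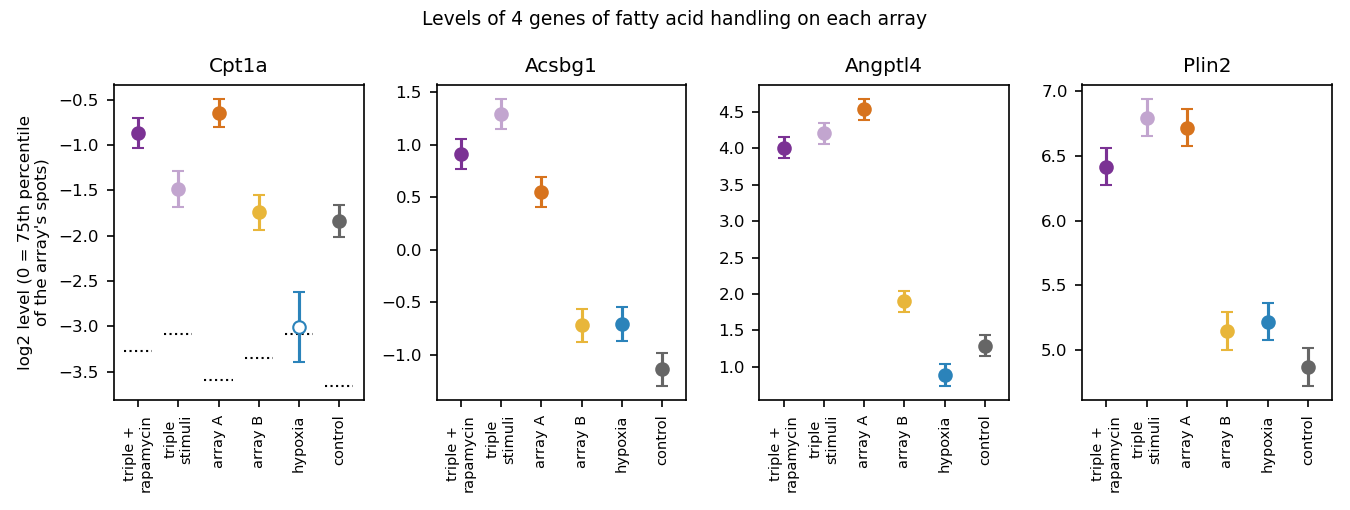
Log2 level of Cpt1a, Acsbg1, Angptl4 and Plin2 on each of the 6 arrays, with the scanner software's error as bars; the open point was not well above background, the dotted lines in the first panel mark the lowest level well above background, and the panels have different axes. Cpt1a is lowest in hypoxia at -3.01, and Acsbg1, Angptl4 and Plin2 are high on the 3 arrays where Acot2 is high.

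The genes whose levels followed each of the 2 genes most closely over the 6 arrays were ranked by Pearson's r among genes well above background on all arrays with a range of at least 2 on the log2 scale. For Acot2 the 5 highest of 143 genes were Gadd45a, a stress-induced growth arrest gene, with r of 0.99, Fam171b, the glycine transporter gene Slc6a9 and the phosphatase gene Dusp4, each with 0.98, and Tnfaip2 with 0.97. For Acot1 the 5 highest of 144 genes were the Mediator subunit gene Med17 with 0.83, the kinase gene Plk3 with 0.78, Angptl4 with 0.75, and the glutathione transferase gene Gsta3 and Uap1l1 with 0.74 each. The correlation of Acot1 with Acot2 was 0.61. All of these values rest on the same 6 arrays, where a single array can set r: Med17 had a level of -2.46 in hypoxia and between -0.47 and -0.05 on every other array.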

How the data were processed

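RNA of mProx24 cells was hybridised to 6 single-colour (Cy3) Agilent arrays of 1 design, 1 array per condition. Per the submitters' processing notes and the file headers, the images were read by the authors with Agilent Feature Extraction 10.7.3.1; it removed background, detrended within the array and gave surrogates to spots at background. The deposited scanner files hold this signal as a linear intensity of each spot, not scaled across arrays. Values in the deposited table are a ratio for each spot, the same signal divided by a percentile of its array, with the scale and the division read from its values; its column medians ran from 0.0505 to 0.0562. Set against the scanner files, 4 of its columns matched their own label, and those labelled high glucose and high FFAs each matched the other's array (SD of the log2 difference 2.89e-07 and 2.87e-07).

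The log2 processed signal less the log2 75th percentile of the array's non-control spots was averaged over the spots of a probe (Python 3.11.15, pandas 2.3.3, numpy 2.4.6). The 323 probes with an outlier mark were left out, none of them a thioesterase probe. A probe entered a comparison when all its spots passed the software's well-above-background call on 1 or both of its arrays. A dim side below the lowest signal well above background of its array was raised to it, which makes the difference a bound. Dim sides already above that signal, as for Acot1 and Cpt1a in hypoxia, were left as read. A bound that crossed 0 gave no value. Spot rows were grouped in 6 bands of 64 rows. For the gene lists, the probe with the highest mean stood for a gene, and the 4 members with the largest difference on array A and the 4 in hypoxia could be named; the most alike genes were the 5 with the highest r. The members and lists were chosen with earlier results of these data known. The 9 alternatives tried per comparison included quantile normalization and normexp (offset 50, limma 3.58.1 in R 4.3.3). The arithmetic was tested on simulated data. Precision is limited by the number of arrays.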

Additional observations from a re-analysis of the deposited data

How the results depend on the processing

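No paired analysis was possible because each condition had 1 array, and for the same reason no replicate could be left out. Of 126 counts of thioesterase probes under the alternatives, 9 differed from the reported count, and 0 results reversed. Under normexp background correction, 0 probes were lower in hypoxia (reported 1), 1 was higher with triple stimuli than in hypoxia (reported 2) and 0 were higher with rapamycin (reported 1), in each case through Acot1. With probes asked to be well above background on both arrays, which leaves out Acot1 wherever hypoxia is compared, 0 were lower in hypoxia, 1 was higher on array A than in hypoxia and 1 was higher with triple stimuli than in hypoxia. Without a filter on dim probes, 1 was lower on array B than in control (reported 0), an Acot3 probe dim on both arrays. At a limit of 0.5 on the log2 scale, 1 was lower with rapamycin (reported 0), Acot2, and 3 were higher with triple stimuli than in hypoxia (reported 2), the second Acot8 probe being added.

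Of the single differences of Acot1 and Acot2, 9 moved by more than the scanner error, all under normexp, and 114 did not, nor did the 315 of the other probes. Only quantile normalization, normexp, the deposited value table and subtraction of band medians could change the difference of a measured probe. The remaining alternatives change the limit or which probes enter, so their unmoved values were fixed in advance and say nothing on stability. Over all alternatives Acot1 on array A against control lay between 1.61 and 2.03 and Acot2 between 2.08 and 3.01. On array A against hypoxia, Acot1 lay between 2.25 and 3.70 and Acot2 between 1.91 and 2.90, and with triple stimuli against hypoxia, Acot1 lay between 0.66 and 1.56 and Acot2 between 1.77 and 2.76. With triple stimuli against control, Acot2 lay between 1.94 and 2.87 and Acot1 between -0.19 and 0.02; with rapamycin, Acot1 lay between 0.80 and 1.22 and Acot2 between -0.92 and -0.69. Over all probes, those at least 2-fold higher on array A than in control were 1.56% as reported, 0.693% under normexp, 1.19% with both arrays well above background, 4.55% without a filter and 8.36% at a limit of 0.5. The corresponding shares lower in hypoxia were 0.457%, 0.102%, 0.263%, 1.71% and 5.7%. A lower limit can only raise a share, and the filter settings change which probes are counted. Normexp was run with an offset of 50 units. An offset added to both signals makes their log2 difference smaller, most of all for dim spots. The Acot1 spot read 35.6 units in hypoxia, and the Acot2 spot between 50.3 and 55.5 units on its low arrays. How much of the normexp shifts came from the offset was not tested. Dim spots limit the low side of Acot1 in hypoxia and leave Acot3, Acot4, Acot11 and Acot12 without a value.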
